A study of Homo sapiens with 6 samples.

Results

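Mitotic kinases and checkpoint genes were followed in newly made and in total mRNA of MOLM-13 cells after inhibition of CBP/p300. The 10 genes were chosen by name among the 25420 genes of the deposited 3′ UTR annotation: PLK1, AURKA, AURKB, CDC20, CCNB1, CCNB2, BUB1, BUB1B, MAD2L1 and CDK1. MOLM-13 is an established human cell line of acute myeloid leukaemia, and no other line was measured in these libraries. The C646 group was kept for 2 h in 10 µM C646, an inhibitor of the acetyltransferase domain of CBP and p300, and the DMSO group for the same time in the vehicle. Both groups received 100 µM 4-thiouridine (4sU) for the last 1 h, and each holds 3 libraries. Whether the replicates came from separate cultures is not stated in the sources used here, so that p-values measure only the spread between these libraries. In SLAM-seq, a 4sU built into new RNA shows up as a C where the genome has a T, and a read with at least 1 such conversion (a T>C read) counts as new RNA. All reads together stand for total mRNA. The comparison asks which transcripts change in their new synthesis soon after CBP/p300 is inhibited.

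Entry into mitosis is driven by the kinase CDK1 bound to a B-type cyclin, and the kinases PLK1, Aurora A and Aurora B then build the spindle and control the attachment of chromosomes. The spindle checkpoint proteins BUB1, BUBR1 and MAD2 hold back CDC20, the activator of the anaphase-promoting complex, until all chromosomes are attached. CDC20 then directs the destruction of the B-type cyclins, which ends mitosis. Transcripts of these genes are made mostly in late S phase, G2 and M phase of dividing cells. In a bulk sample, fewer cells in those phases and less RNA per cell cannot be told apart.

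Promoters of such genes often hold CCAAT boxes, letters bound by NF-Y, and a cell cycle homology region (CHR), where complexes that repress or activate mitotic genes bind. The 4 promoters shown are those of the genes with both motifs that had the most T>C reads, so that where these letters lie can be seen beside the changes below. They are taken from RefSeq (GRCh38.p14, plus strand) and run from 250 to 21 bases before the start. Capitals mark the CCAAT box and, for the CHR, the letters TTTGAA or the variant spelling with one letter changed, TTTAAA. Both strands were searched, and the last of these spellings reads the same on either strand. The windows are chr16:23678639-23678868 for PLK1, chr10:60778081-60778310 for CDK1, chr5:69166900-69167129 for CCNB1 and chr15:59104896-59105125 for CCNB2.
PLK1: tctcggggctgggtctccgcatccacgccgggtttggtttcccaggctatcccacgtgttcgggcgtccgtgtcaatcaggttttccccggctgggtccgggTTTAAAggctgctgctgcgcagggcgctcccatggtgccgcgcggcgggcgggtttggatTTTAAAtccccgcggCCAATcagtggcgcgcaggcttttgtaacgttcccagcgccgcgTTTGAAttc
CDK1: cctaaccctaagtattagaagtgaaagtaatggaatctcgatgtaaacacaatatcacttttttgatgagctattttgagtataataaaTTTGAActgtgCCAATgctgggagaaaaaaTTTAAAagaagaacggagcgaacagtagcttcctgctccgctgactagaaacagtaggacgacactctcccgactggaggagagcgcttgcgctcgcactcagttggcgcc
CCNB1: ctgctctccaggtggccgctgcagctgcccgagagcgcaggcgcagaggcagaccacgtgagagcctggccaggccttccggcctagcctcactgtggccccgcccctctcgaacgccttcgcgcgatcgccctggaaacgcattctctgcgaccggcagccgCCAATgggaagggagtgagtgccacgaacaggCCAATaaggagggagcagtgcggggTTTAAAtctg
CCNB2: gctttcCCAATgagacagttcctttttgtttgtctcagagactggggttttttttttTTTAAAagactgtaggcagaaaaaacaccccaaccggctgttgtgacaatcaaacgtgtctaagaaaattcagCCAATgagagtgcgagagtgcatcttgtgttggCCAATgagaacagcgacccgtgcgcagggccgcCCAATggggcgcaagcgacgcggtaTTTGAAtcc

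In these windows, a CHR sequence began 29 bases before the start in PLK1, 30 bases in CCNB1 and 29 bases in CCNB2, and the nearest CCAAT began 73, 55 and 54 bases before it. In the printed window of CDK1 the CHR sequences began 161 and 131 bases before the start and its CCAAT 150 bases before it. CDK1 has a second, overlapping window in the table, in which TTTGAA began 69 and 13 bases before a later start and CCAAT, on the other strand, 78 and 46 bases before it. In the full windows, which run from 250 bases before to 50 bases after the start, CCAAT was found in 10 of the 11 windows of 9 of the genes and in 34.6% of all 35116 windows of the table. A CHR sequence was found in 8 of the 11 windows and in 24.0% of all windows, and both motifs in 7 of the 11 and in 9.27% of all. The windows of AURKB overlap, as do those of CDK1, so that windows are not separate genes. Counted by gene, CCAAT was found in 8 of 9 and in 39.7% of all 27305 genes. A CHR sequence was found in 7 of 9 and in 27.85% of all genes, and both motifs in 6 of 9 and in 11.2%. BUB1B had no CCAAT and AURKB and BUB1 no CHR sequence in their windows. AURKA is not in the table. A match of letters describes the sequence and is not a measured binding site.

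Each gene was measured on its annotated 3′ UTR, given here by Entrez identifier and GRCh38 position of the entry with the most reads. For the kinases, the entries were chr16:23690064-23690367 on the plus strand for PLK1 (5347), chr20:56369389-56370157 on the minus strand for AURKA (6790), chr17:8204731-8205044 on the minus strand for AURKB (9212) and chr10:60793976-60794852 on the plus strand for CDK1 (983). The cyclin entries were chr5:69177632-69178243 for CCNB1 (891) and chr15:59124878-59125045 for CCNB2 (9133), both on the plus strand, and that of CDC20 (991) was chr1:43363130-43363202 on the plus strand. The checkpoint entries were chr2:110637698-110637963 on the minus strand for BUB1 (699), chr15:40220760-40221136 on the plus strand for BUB1B (701) and chr4:120059424-120060117 on the minus strand for MAD2L1 (4085). GENCODE 44 annotates a UTR of the same gene at each place. The entry of PLK1 overlaps one of ERN2 on the other strand, and those of BUB1B and CCNB2 lie within a longer gene or transcript on the same strand (PAK6 and BUB1B-PAK6, and ENSG00000259732), whose reads cannot be told apart here. At most 0.316% of the reads of a gene mapped to more than 1 place.

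New RNA of PLK1, both Aurora kinases, CDK1 and CCNB1 was lower after C646. In T>C reads, 5 of the 10 genes fell (PLK1, AURKA, AURKB, CDK1 and CCNB1) and 0 rose, where a call needs an adjusted p of at most 0.01 and a log2 fold change of at least 1 in size. Of all 7722 genes tested, 33.0% were called lower and 2.97% higher. T>C reads are given as CPM relative to the TMM-scaled total of all reads on 3′ UTRs. They were tested with the quasi-likelihood test of edgeR, and p-values were adjusted by Benjamini-Hochberg over all genes tested. Summed over the 10 genes, T>C reads were 109 ± 12.1 CPM in DMSO and 39.8 ± 1.64 CPM in C646 (mean ± SD, n = 3), while all reads were 919 ± 8.55 and 850 ± 12.2 CPM.

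PLK1, the kinase that matures centrosomes and promotes mitotic entry, had 20.1, 20.3 and 20.1 CPM of T>C reads in DMSO replicates 1 to 3 and 5.83, 7.73 and 5.96 CPM in C646 replicates 1 to 3. The DMSO libraries lay close together and all C646 libraries lay far below them. Its log2 fold change was -1.63 (SE 0.22, adjusted p = 6.51e-07), 3.09-fold lower. AURKA, which encodes Aurora A, the kinase of centrosomes and spindle poles, had 18.3, 18.5 and 12.0 CPM in DMSO and 4.37, 5.89 and 5.86 CPM in C646. DMSO replicate 3 was the lowest of its group and still above every C646 library. The log2 fold change of AURKA was -1.59 (SE 0.25, adjusted p = 5.52e-06). AURKB encodes Aurora B, the kinase of the chromosomal passenger complex that corrects faulty attachments. Its T>C reads were at 20.7, 18.5 and 12.4 CPM in DMSO and at 7.95, 8.10 and 6.56 CPM in C646. The groups did not overlap, with DMSO replicate 3 again lowest in DMSO. AURKB fell by 1.20 on the log2 scale (SE 0.24, adjusted p = 0.000116).

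**Figure D1:**
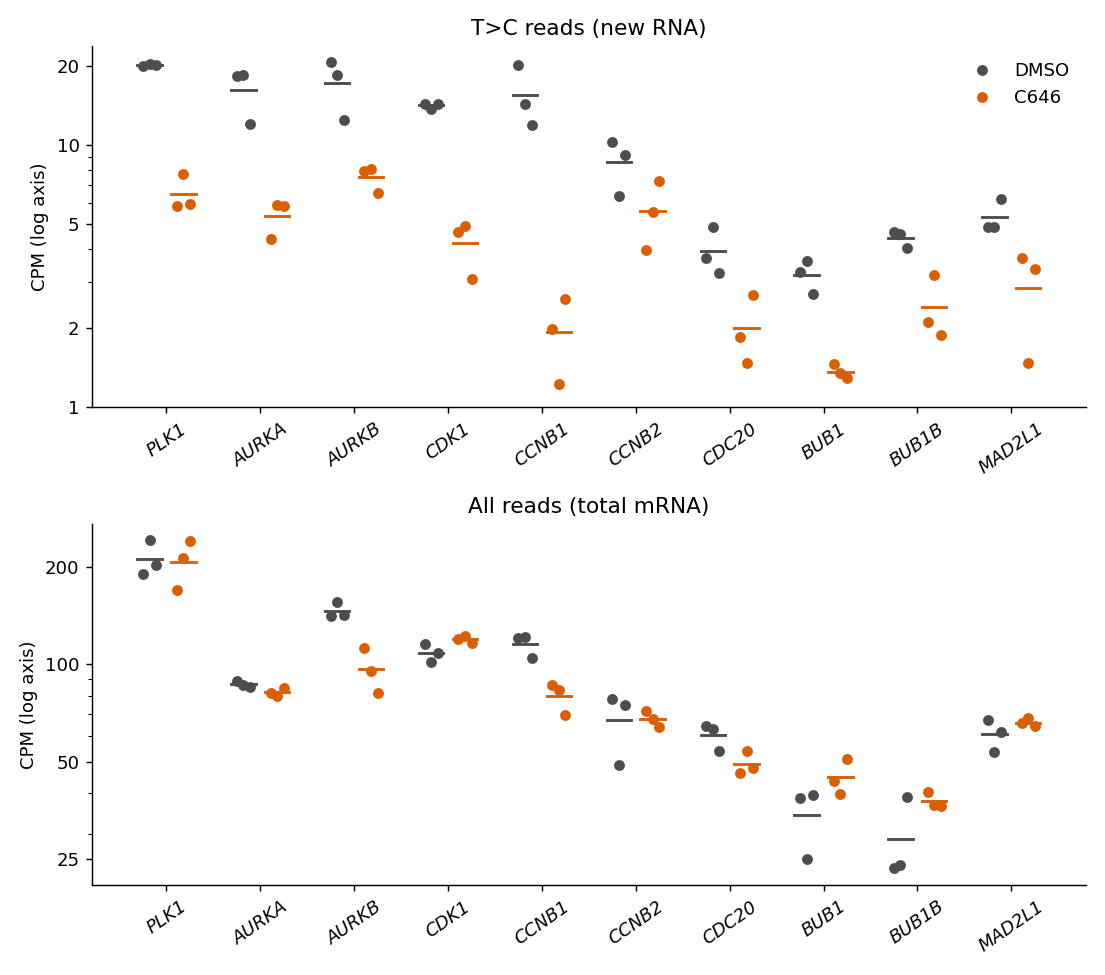
T>C reads (top) and all reads (bottom) of each of the 10 genes in CPM on log axes, with 1 point per library and a line at the mean of each group of 3. With libraries scaled by all reads, the C646 points of T>C reads lie below the DMSO points in 9 genes, with CCNB2 the exception, while in all reads the groups overlap in 5 genes.

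CDK1 had 14.4, 13.7 and 14.3 CPM of T>C reads in DMSO and 4.64, 4.91 and 3.08 CPM in C646. All 3 DMSO libraries agreed closely and the C646 libraries lay well under them. Its log2 fold change was -1.76 (SE 0.26, adjusted p = 2.24e-06), 3.38-fold lower. CCNB1, the cyclin B1 gene whose product activates CDK1, stood at 20.2, 14.3 and 11.9 CPM in DMSO and at 1.99, 1.23 and 2.58 CPM in C646. These C646 values rest on 15, 10 and 26 T>C reads. The log2 fold change of CCNB1 was -2.97 (SE 0.31, adjusted p = 4.88e-09), or 7.86-fold lower, and the most negative of the 10. CCNB2, the gene of the related cyclin B2, did not pass the test. It had 10.2, 6.39 and 9.17 CPM in DMSO and 3.97, 5.52 and 7.25 CPM in C646, so that C646 replicate 3 lay above DMSO replicate 2. Its log2 fold change was -0.61 (SE 0.29, adjusted p = 0.0707). The difference between both cyclins was not tested.

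CDC20, the activator of the anaphase-promoting complex, had 3.69, 4.86 and 3.24 CPM of T>C reads in DMSO and 1.85, 1.47 and 2.68 CPM in C646. The groups did not overlap, but the gene missed the threshold at a log2 fold change of -0.95 (SE 0.42, adjusted p = 0.0556). BUB1, a kinase that recruits checkpoint proteins to kinetochores, had 3.27, 3.61 and 2.70 CPM in DMSO and 1.46, 1.35 and 1.29 CPM in C646. All C646 values were below those of DMSO, on 11, 11 and 13 T>C reads. BUB1 was at -1.22 on the log2 scale (SE 0.47), with an adjusted p of 0.0276 that missed the threshold. BUB1B encodes BUBR1, a part of the mitotic checkpoint complex that binds CDC20, and had 4.64, 4.58 and 4.05 CPM in DMSO and 2.12, 3.19 and 1.89 CPM in C646. C646 replicate 2 was the highest of its group and below every DMSO library. The log2 fold change of BUB1B was -0.89 (SE 0.39, adjusted p = 0.0529). MAD2L1 encodes MAD2, the protein that captures CDC20 at the checkpoint. Its T>C reads were at 4.86, 4.86 and 6.20 CPM in DMSO and at 3.71, 1.47 and 3.38 CPM in C646, with C646 replicate 2 far below the other two. MAD2L1 was at -0.89 (SE 0.37, adjusted p = 0.0438). These 4 genes had 11 to 46 T>C reads per library, against 10 to 196 over all 10 genes.

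Across the 10 genes the median log2 fold change in T>C reads was -1.21, and that of all genes tested was -0.83 with quartiles of -1.46 and -0.25. The 10 values were all below 0, though that of CCNB2 turned to 0.21 when libraries were scaled by their own T>C reads (TMM). In 9 of the 10 genes all C646 libraries lay below all DMSO libraries, as they did in 55.8% of all genes tested. CCNB1 stood at the percentile 2.59 of all log2 fold changes, CDK1 at 17.0, AURKB at 34.1 and CCNB2 at 60.0. Scaling by T>C reads moved the median of all genes by 0.84, to 0.011, and so removes what most genes share. Under it 7.6% of all genes tested were called lower, and of the 10 genes 1 was called, CCNB1, at -2.15 (adjusted p = 2.58e-06). PLK1 was then at -0.80 (adjusted p = 0.00681), CDK1 at -0.92 (adjusted p = 0.00790), AURKA at -0.76 (adjusted p = 0.0191) and AURKB at -0.36 (adjusted p = 0.262). PLK1 and CDK1 thus passed the limit on p but not that on the fold. Scaling by all filtered reads, 3′ UTR or not, put the median of all genes at -0.62 and ended the call of AURKB alone, at -0.995 (adjusted p = 0.00139).

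**Figure D2:**
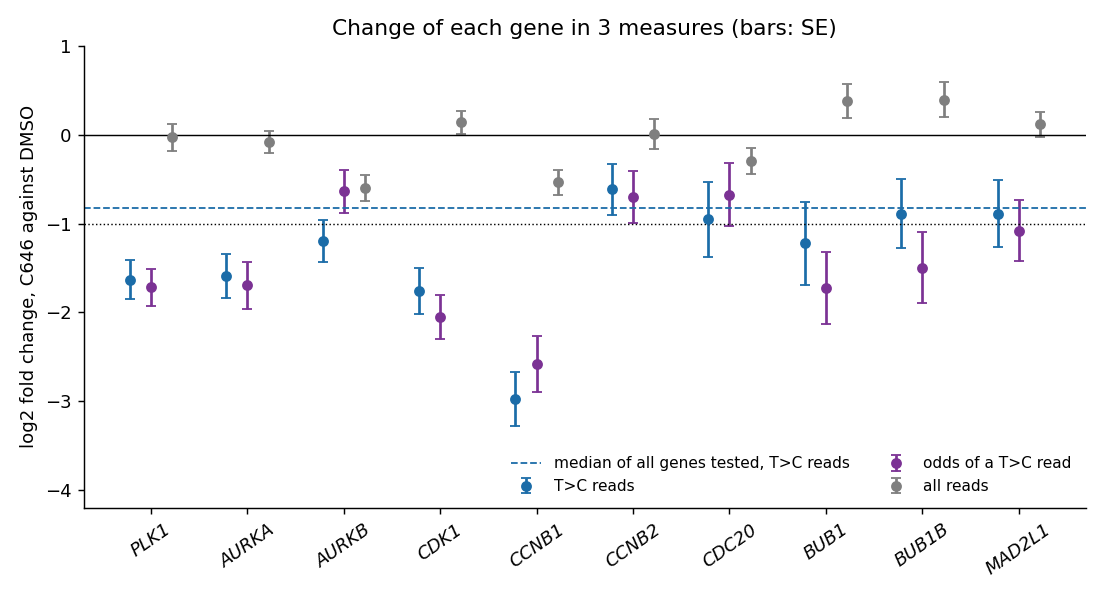
Log2 fold changes, C646 against DMSO, of each gene in T>C reads, in the odds of a T>C read and in all reads, with bars for the SE. The dashed line is the median of all genes tested in T>C reads (-0.83) and the dotted line the limit of -1. CCNB1 is lowest in T>C reads at -2.97, and in all reads the 10 genes lie between -0.60 and 0.39.

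In total mRNA of the same libraries, none of the 10 genes passed the test. In all reads, 0 of the 10 genes were called in either direction, against 1.88% called lower and 5.89% called higher of 10851 genes tested. At an unadjusted p under 0.05 there were 2 of the 10, AURKB and CCNB1, against 42.6% of all genes. That count came to 4 with the replicate as a block and to 6 with libraries scaled by all filtered reads. AURKB had 140, 155 and 141 CPM of all reads in DMSO and 112, 95.1 and 81.5 CPM in C646. Every C646 library was below every DMSO library. The log2 fold change was -0.60 (SE 0.14, adjusted p = 0.00653). In this fit, AURKB was the only 1 of the 10 lower at an adjusted p of at most 0.01 whatever the fold, as 6.28% of all genes were, and with 1 library left out this held only without C646 replicate 1 (adjusted p = 0.00322) and otherwise came to between 0.0175 and 0.0381. CCNB1 had 120, 122 and 104 CPM in DMSO and 86.1, 83.5 and 69.5 CPM in C646, also without overlap. Its log2 fold change was -0.53 (SE 0.14, adjusted p = 0.010025), just over the limit. It was under the limit on p in other fits, such as DESeq2 (adjusted p = 0.00274), plain totals (0.00909) and no filter on low counts (0.00441), and over it with any 1 library left out (0.0123 to 0.0403). With libraries scaled by all filtered reads, which put the median of all genes at 0.20, AURKB was at -0.40 (adjusted p = 0.0369) and CCNB1 at -0.33 (adjusted p = 0.0730).

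PLK1 had 190, 241 and 202 CPM of all reads in DMSO and 170, 212 and 240 CPM in C646. The ranges of both groups were nearly the same, and the log2 fold change was -0.03 (SE 0.15). CDK1 had 115, 102 and 108 CPM in DMSO and 119, 123 and 117 CPM in C646, a slightly higher range at a log2 fold change of 0.14 (SE 0.13, adjusted p = 0.428). BUB1 had 38.7, 24.99 and 39.4 CPM in DMSO and 43.7, 39.6 and 51.0 CPM in C646. Its lowest C646 library was just above its highest DMSO library, and the log2 fold change was 0.38 (SE 0.19, adjusted p = 0.137). BUB1B had 23.4, 24.0 and 39.0 CPM in DMSO and 40.3, 36.7 and 36.5 CPM in C646, with DMSO replicate 3 among the C646 values, at 0.39 (SE 0.20, adjusted p = 0.142). The other four did not pass the test either, with log2 fold changes of -0.30 for CDC20, -0.08 for AURKA, 0.01 for CCNB2 and 0.12 for MAD2L1. Without overlap, AURKA, AURKB and CCNB1 were lower in C646, which was so in 23.1% of all genes, and BUB1 and CDK1 were higher, as were 24.5% of all genes. The median of the 10 genes in all reads was -0.0086.

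The share of T>C reads among the reads of a gene needs no scaling between libraries. It was lower in all C646 than in all DMSO libraries in 10 of 10 genes, and in 64.6% of the 7709 genes with reads in every library. Over the whole libraries, T>C reads made up 8.79% ± 0.0637 of the reads in DMSO and 6.48% ± 0.203 in C646 (SD, n = 3). For the 10 genes together the share was 11.8% ± 1.21 in DMSO and 4.68% ± 0.127 in C646. A two-sided exact permutation test gave p = 0.1 for each gene, the smallest that 3 libraries against 3 allow, and 0.1 after adjustment over the 10.

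CCNB1 had the lowest mean share in C646, at 2.31%, 1.47% and 3.71%, though in replicate 3 PLK1, BUB1 and CDK1 were lower, and 16.8%, 11.8% and 11.4% in DMSO. CDK1 was at 12.4%, 13.5% and 13.2% in DMSO and at 3.89%, 4.01% and 2.64% in C646. PLK1 had 10.5%, 8.40% and 9.96% in DMSO and 3.44%, 3.65% and 2.49% in C646. For these genes the groups were set wide apart. AURKA had a share of 18.7% ± 4.01 in DMSO and 6.57% ± 1.06 in C646, and BUB1B one of 16.4% ± 5.25 and 6.38% ± 2.01. The groups came closest in CDC20, AURKB and CCNB2. CDC20 had 5.75%, 7.68% and 6.02% in DMSO and 4.02%, 2.73% and 5.61% in C646. AURKB had 14.8%, 11.9% and 8.78% in DMSO and 7.07%, 8.52% and 8.05% in C646, so that DMSO replicate 3 was next to the C646 libraries. CCNB2 had 13.1%, 13.1% and 12.3% in DMSO and 5.56%, 8.15% and 11.3% in C646. With the reads of the 3 DMSO libraries pooled, 7 of the 10 shares lay under 13.4%, the median of all genes tested, and CDC20 was at the percentile 17.1. The 95% Wilson intervals of single shares were 1.25 to 11.7 percentage points wide. They cover counting error only, since reads after PCR are not independent molecules.

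**Figure D3:**
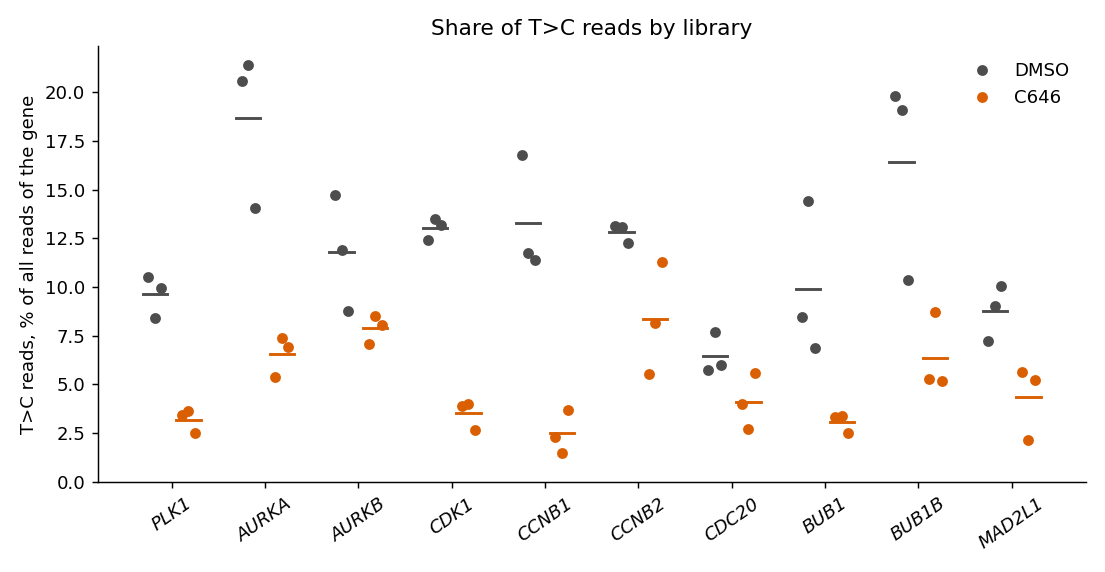
T>C reads as a percentage of all reads of each gene, with 1 point per library and a line at the mean of each group of 3. All C646 points lie below the DMSO points of the same gene, and the groups come closest in CDC20, AURKB and CCNB2.

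The odds of a T>C read were tested with a model that holds T>C and other reads of each library together, and so compares the change in new RNA with that in the other reads. In it, 7 of the 10 genes were called lower and 0 higher, against 38.3% lower and 0.79% higher of all genes tested, and the median of the 10 was -1.60 against -1.004 for all genes. PLK1 was at -1.72 (SE 0.21, adjusted p = 4.83e-07), AURKA at -1.70 (SE 0.27, adjusted p = 1.72e-05), CDK1 at -2.06 (SE 0.25, adjusted p = 4.14e-07) and CCNB1 at -2.58 (SE 0.32, adjusted p = 5.35e-07). These 4 calls held with any 1 library left out. All 3 checkpoint genes passed in this measure, BUB1 at -1.72 (SE 0.41, adjusted p = 0.00104), BUB1B at -1.50 (SE 0.40, adjusted p = 0.00264) and MAD2L1 at -1.08 (SE 0.35, adjusted p = 0.00982). The call of BUB1 was lost without DMSO replicate 2 (adjusted p = 0.0125), and that of BUB1B without DMSO replicate 1 (0.0251) or 2 (0.0216). MAD2L1 was lost without C646 replicate 2 (adjusted p = 0.0663) and without DMSO replicate 1 (0.0157), 2 (0.0383) or 3 (0.0517). AURKB, whose reads of all kinds were also lower in C646, was at -0.64 (SE 0.24, adjusted p = 0.0266) and was not called. CDC20 at -0.68 (adjusted p = 0.0984) and CCNB2 at -0.70 (adjusted p = 0.0420) were not called either, but CCNB2 passed without C646 replicate 3 (adjusted p = 0.00601).

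T>C reads of AURKB and CCNB2 carried few conversions in C646. AURKB had 67, 70 and 68 conversions on 60, 66 and 66 T>C reads in C646, or 1.12, 1.06 and 1.03 per read, against 2.13, 2.48 and 2.35 per read in DMSO. CCNB2 had 33, 46 and 81 conversions on 30, 45 and 73 T>C reads in C646, or 1.10, 1.02 and 1.11 per read, against 2.24, 1.59 and 3.09 in DMSO. Inside the 3′ UTR, a C646 read counted as new for these genes thus held about 1 conversion on average. With the reads of a group pooled, AURKB was among all genes tested in C646 at the percentile 6.26 and CCNB2 at 6.76, while in DMSO they stood at 64.1 and 70.8. The median of all genes tested was 2.11 conversions per T>C read in DMSO and 1.82 in C646. The part that reads with a single conversion play in the log2 fold changes of both genes was not tested, since the tables do not separate them.

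Other genes carried more. PLK1 had 2.47 ± 0.147 conversions per T>C read in DMSO and 1.85 ± 0.129 in C646, AURKA 2.45 ± 0.159 and 1.99 ± 0.174, and BUB1 1.93 ± 0.122 and 1.65 ± 0.113. CDK1 had 2.92 ± 0.159 in DMSO, with 1.23, 2.33 and 2.55 in the C646 libraries, of which replicate 1 stood apart. MAD2L1 had 2.37 ± 0.524 and 2.48 ± 0.306, with overlap, and CCNB1 overlapped as well. In 8 of the 10 genes all C646 libraries were below all DMSO libraries, against 24.9% of the 7519 genes with T>C reads in every library. Counted as conversions per covered T, the log2 ratio of C646 to DMSO was -1.66 for AURKB and -1.63 for CCNB2, beside -0.58 and -0.62 for the share of T>C reads. For CCNB1 these ratios were -2.86 and -2.41, for CDK1 -2.51 and -1.89, and for MAD2L1 -1.01 in both.

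**Figure D4:**
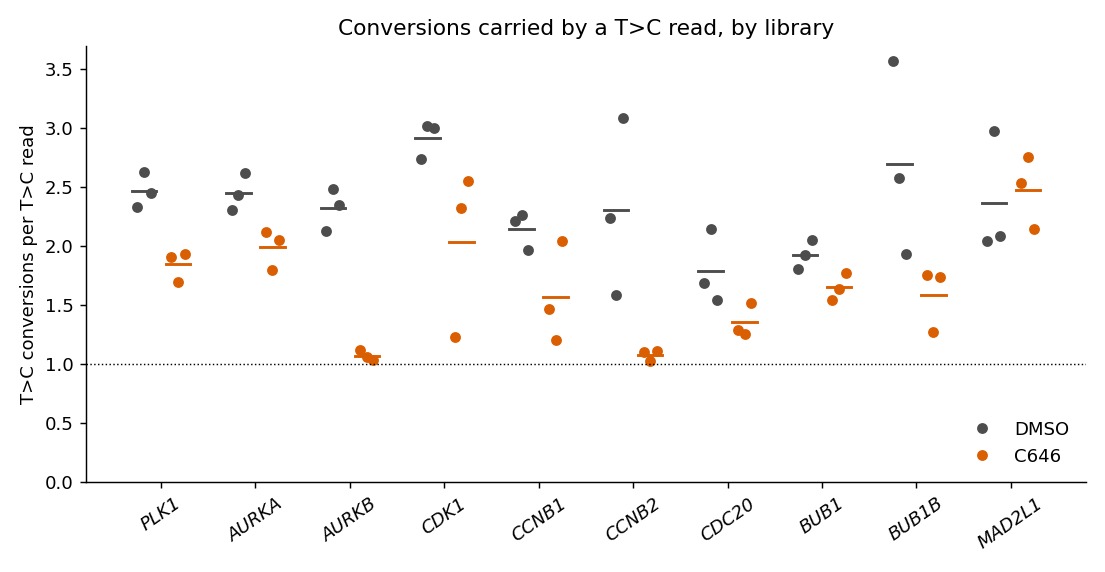
T>C conversions per T>C read of each gene, with 1 point per library, a line at the mean of each group of 3 and a dotted line at 1 conversion per read. The C646 points of AURKB and CCNB2 lie between 1.02 and 1.12, and those of MAD2L1 overlap the DMSO points.

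The wider mitotic machinery was read from 7 lists of 126 further genes, of which 111 were tested in T>C reads. There, 50 fell and 1 rose, a share lower of 45.0% beside 33.0% of all genes tested, and the median was -1.11. Of the mitotic kinesins and spindle genes, 12 of 17 fell, with a median of -1.69. Scaled by T>C reads, 4 of the 17 were called lower, with a median of -0.87, against 7.6% of all genes tested. KIF23, the motor of centralspindlin, went from 6.89 ± 1.76 to 0.309 ± 0.276 CPM of T>C reads (-4.42, SE 0.54, adjusted p = 9.43e-08), on 4, 0 and 4 reads in C646. KIF20A, a motor of cytokinesis, was at -3.36, and KIF18B, which trims microtubule ends, at -3.17. Of the partners of the kinases and genes of mitotic entry, 10 of 17 fell, with a median of -1.74. Scaled by T>C reads, 6 of the 17 then tested were called lower, with a median of -0.69. INCENP, the scaffold of Aurora B, had 14, 12 and 10 T>C reads in DMSO and 0, 1 and 0 in C646. It passed the filter on low counts only through its DMSO libraries, and was not tested when scaled by T>C reads. CCNF, the gene of the F-box protein cyclin F, was at -4.43 on 3, 5 and 1 reads in C646. CDC25A, a phosphatase that activates CDKs, went from 27.6 ± 2.91 to 3.37 ± 0.640 CPM (-3.02, SE 0.24, adjusted p = 1.59e-11).

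Among the partners of the checkpoint at the kinetochore, 4 of 9 fell and 1 rose, with a median of -1.26, against 33.0% lower and 2.97% higher of all genes. Scaled by T>C reads, 0 of the 9 were called lower. ZWILCH, of the complex that brings dynein to kinetochores, was at -2.15 (SE 0.41, adjusted p = 6.54e-05), TRIP13, the ATPase that remodels MAD2, at -2.04 (SE 0.60, adjusted p = 0.00504) and TTK, the kinase that starts checkpoint signalling, at -1.43 (SE 0.36, adjusted p = 0.00137). MAD2L1BP, which encodes the adaptor that brings MAD2 to TRIP13, had 6.44, 3.05 and 4.18 CPM in DMSO and 8.61, 8.47 and 13.5 CPM in C646. With libraries scaled by all reads, it was the only gene of these lists that rose, at 1.15 (SE 0.30, adjusted p = 0.00190), and it also rose in all reads, at 1.44 (SE 0.28, adjusted p = 0.00164). Scaled by T>C reads, 1 gene was called higher in each of the 7 lists but that of the kinetochore, such as CKS2 at 1.15 (adjusted p = 0.000151). In the anaphase-promoting complex and separase list, 8 of 16 fell, against 33.0% of all genes, with a median of -0.94 that came to -0.11 with 1 gene called lower when scaled by T>C reads. The ubiquitin-conjugating enzymes that work with this complex, UBE2S and UBE2C, were at -3.21 and -1.73, and its subunit gene ANAPC15 at -2.02.

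In the list of kinetochore and centromere structure, 6 of 18 fell, with a median of -1.01, a share close to the 33.0% of all genes tested. Scaled by T>C reads, 0 of the 18 were called lower and the median was -0.18. CENPE, a kinetochore motor, was at -2.79 on 3, 3 and 1 reads in C646, CENPA, the histone H3 variant of centromeres, at -2.37 and SPC24, a subunit of the NDC80 complex, at -1.83. Their calls were lost when scaled by T>C reads (adjusted p = 0.0379, 0.0307 and 0.0760). For condensin, cohesin and chromosome structure, 5 of 20 fell at a median of -0.79, and for transcription regulators of mitotic genes 5 of 14 at -0.75, medians that turned to 0.046 and 0.082 when scaled by T>C reads. These shares, 25% and 35.7%, lie around the 33.0% of all genes tested. MKI67, which coats mitotic chromosomes, was at -2.32, the condensin gene NCAPG at -2.31 and TOP2A, which untangles DNA, at -2.27. FOXM1, an activator of G2 and M phase genes, was at -2.33, E2F1 at -1.83 and E2F4, a part of the repressor complex that acts in quiescent cells, at -1.79. Under scaling by T>C reads, 3 of 20 condensin and cohesin genes and 0 of 14 regulators were called lower. The calls lower in the 7 lists came to 14 in all under it, where 7.6% of all 7847 genes tested were called lower.

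**Figure D5:**
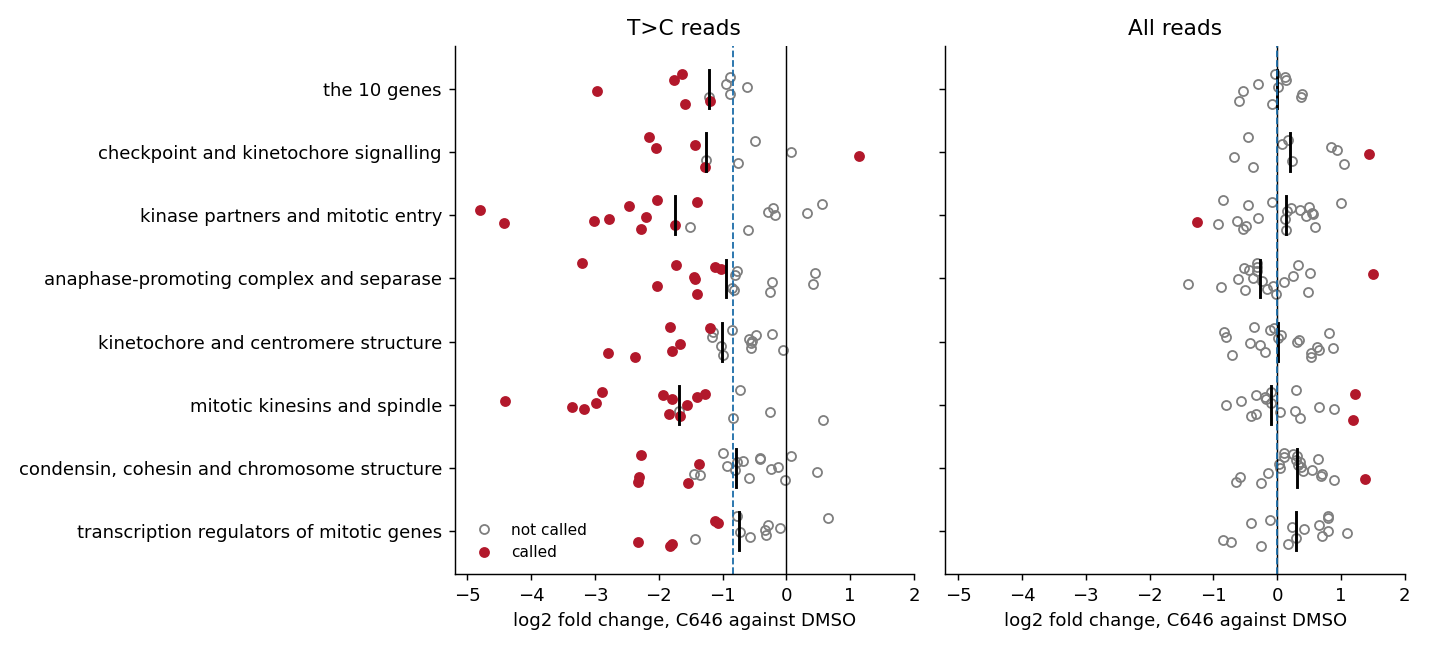
Log2 fold changes, C646 against DMSO, of every tested gene of the 10 and of the 7 further lists in T>C reads (left) and all reads (right). Filled points were called, short bars are medians of a list and the dashed lines medians of all genes tested. In T>C reads 12 of 17 kinesin and spindle genes and 5 of the 10 genes were called lower, against 33.0% of all genes tested. Scaled by T>C reads, which is not drawn, these counts came to 4 of 17 and 1 of 10, against 7.6%. In all reads 0 of the 10 were called, against 1.88% lower and 5.89% higher of all genes tested.

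In all reads, 1 of 122 tested genes of these lists fell, CDC25A at -1.26 (SE 0.15, adjusted p = 6.8e-05), and 5 rose, with a median of 0.11. Both counts stand at or below the background, 1.88% lower and 5.89% higher of all genes.

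The libraries held 7252597 to 10225448 reads on 3′ UTRs, of which 477824 to 833410 were T>C reads, and each of the 10 genes had 173 to 2413 reads per library. All 8 markers of this myeloid line (CD33, FLT3, HOXA9, MEIS1, SPI1, MPO, PTPRC and LYZ) were above 5 CPM in every library, with a summed level of 3329 to 3651 CPM in DMSO and 3539 to 3768 CPM in C646, most of it LYZ. In all reads, SPI1 fell from a mean of 199 to 94.99 CPM (log2 fold change -1.07, adjusted p = 0.000835). In T>C reads, 5 of 7 tested markers of the line were called lower, with a median of -1.12, against 33.0% and -0.83 for all genes tested. Scaled by T>C reads, 2 of the 7 were called lower, with a median of -0.29, against 7.6% of all genes tested. In all reads, at an adjusted p of at most 0.01 but below the fold limit, CD33 was at -0.55, FLT3 at 0.62 and PTPRC at 0.92. Of 12 markers of other cells, 5 (CD3E, HBB, KRT19, COL1A2 and VWF) had no read. COL1A1 rose from a mean of 1.51 to 6.28 CPM (log2 fold change 2.02, adjusted p = 0.00215), and EPCAM, with at most 14 reads in a library, had means of 0.176 and 1.14 CPM. The part of these markers in the results was not tested. PECAM1, which myeloid cells also express, reached 88.9 to 156 CPM, and made up most of their sum of 147 to 161 CPM in DMSO and 99.3 to 136 CPM in C646.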

How the data were processed

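SLAM-seq libraries of MOLM-13 cells (3 DMSO, 3 C646) were made by the authors with a QuantSeq 3′ end kit and aligned to GRCh38 with SLAM-Dunk 0.4.1. The authors' tables, 1 per library, hold raw counts for 58136 3′ UTR entries, namely of reads in all, of reads with a conversion, of conversions and of multimapped reads. They also hold the deposited CPM, scaled by all filtered reads of the library, and a deposited signal, the read coverage summed over T positions. The deposited T>C reads include reads with 1 conversion, whereas the study's own calls used reads with 2 or more. Whether strand was used in counting is not stated in the sources used here.

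Counts were summed per Entrez gene, and 25310 of 25420 genes (99.6%) were matched to a symbol. Groups and replicate numbers are those of the labels. T>C reads and all reads were tested with edgeR 4.0.16 (R 4.3.3) by the quasi-likelihood test after filterByExpr, with Benjamini-Hochberg adjustment. All reads on 3′ UTRs, scaled by TMM, gave the library sizes. The odds of a T>C read were tested as the T>C by treatment term of a model with a library factor. A call needs an adjusted p of at most 0.01 and a log2 fold change of 1 or more in size. An SE is the size of the log2 fold change over the root of F. Shares were compared by exact permutation tests. The steps were tested on simulated data. Summaries and plots used Python 3.11.15 with scipy 1.17.1, numpy 2.4.6, pandas 2.3.3 and matplotlib 3.10.9.

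The 10 genes and all lists were chosen with earlier results of these data known. From each further list, up to 3 genes called lower and 2 called higher in T>C reads were named, those with the largest change. Alternatives were DESeq2 1.42.0, other scalings and filters, single entries, glmTreat, an adjusted p of 0.05, the replicate block and fits that leave out each library. No library was left out of the results. The variance between pairs of replicates (chi-square per degree of freedom) was 7.87 to 27.7 times what counting alone gives in all reads, and 2.83 to 5.11 times in T>C reads.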

Additional observations from a re-analysis of the deposited data

How the results depend on the processing

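With any 1 library left out, 5 to 5 of the 10 genes were called lower in T>C reads, 0 to 0 in all reads and 4 to 8 in the odds of a T>C read, where the 4 came without DMSO replicate 2. Genes called higher stayed at 0 to 0 in each. Over all genes, 1990 to 2603 were called lower in T>C reads in these fits, beside 2548 with no library left out. In T>C reads, scaling decided the count among the 10 genes: TMM scaling by the T>C reads left 1 gene called, DESeq2's size factors from T>C reads 1, and TMM scaling by the T>C reads with the replicate block, a fit chosen after seeing the data, 1. Of all genes tested, 7.6% were called lower under the first of these. With glmTreat against a log2 fold change of 1 there were 3 of the 10, where 834 of all genes were called lower. Scaling by all filtered reads put AURKB just under the limit at -0.995. In all reads, 2 genes were lower at an adjusted p of at most 0.05 with no fold limit.

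Values that changed sign were those of genes not called. CCNB2 in T>C reads came to 0.18 with DESeq2's size factors from T>C reads, 0.21 with TMM scaling by the T>C reads and 0.20 with its block. CCNB2 in all reads came to -0.0079 with plain totals, -0.022 without C646 replicate 1 and -0.18 without DMSO replicate 2 (range with 1 library left out -0.18 to 0.133). PLK1 in all reads came to 0.19 with all filtered reads, 0.11 without C646 replicate 1 and 0.077 without DMSO replicate 2 (range -0.146 to 0.11), and AURKA to 0.12 with all filtered reads. Causes were not tested.

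For the further lists under TMM scaling by the T>C reads, genes called lower were 1 of 16 of the anaphase-promoting complex, 0 of 9 of the checkpoint and 3 of 20 of condensin and cohesin. They were 6 of 17 of the kinase partners, 0 of 18 of the kinetochore, 4 of 17 of the kinesins and 0 of 14 of the regulators. Genes called higher were 1 in each of these lists but the kinetochore, which had 0. Of all 7847 genes tested under it, 7.6% were called lower and 717 genes higher. Over all genes, calls in T>C reads (2548 lower, 229 higher) became 463 and 641 with DESeq2's size factors from T>C reads, 596 and 717 with TMM scaling by the T>C reads, 634 and 721 with its block, 3870 and 405 at an adjusted p of 0.05, 1038 and 125 with at least 50 T>C reads, and 834 and 105 with glmTreat. In all reads (204 lower, 639 higher) they became 1587 and 1824 at 0.05 and 90 and 1014 with all filtered reads, and lower calls 321 without C646 replicate 1 and 120 without DMSO replicate 2. In the odds they became 4690 and 130 at 0.05.

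Deviations of same-numbered libraries correlated at 0.0299 to 0.0655 in T>C reads and at -0.00136, 0.136 and 0.231 in all reads, where libraries of different number averaged -0.0234 and -0.064. Deviations are taken from the group mean, which largely sets these averages from the same-numbered values, so that the averages say nothing more on pairing. Since not every pair was above 0.1, the numbers were not taken to pair the libraries. With the replicate block, 5 of the 10 genes were called lower in T>C reads, 0 in all reads (CCNB1 at an adjusted p of 0.00249) and 6 in the odds, where MAD2L1 was lost (adjusted p = 0.0117), and 1 kinase partner was called higher in all reads. Of all genes tested, 33.5% were then called lower in T>C reads, 2.14% in all reads and 35.8% in the odds. In T>C reads, the SEs of CDC20, BUB1, BUB1B and MAD2L1, with 11 to 46 T>C reads per library, were 0.37 to 0.47, and those of the other genes 0.22 to 0.31.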

Other observations

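Within the further lists, new and total RNA of PRC1 went opposite ways with libraries scaled by all reads. PRC1, which bundles microtubules of the central spindle, went from 8.69 ± 3.05 to 3.58 ± 0.391 CPM in T>C reads (mean ± SD, n = 3), a log2 fold change of -1.27 (SE 0.31, adjusted p = 0.00118), while in all reads it went from 40.2 ± 16.4 to 94.1 ± 8.59 CPM, a log2 fold change of 1.23 (SE 0.22, adjusted p = 0.00111). Scaled by T>C reads, PRC1 was at -0.44 (adjusted p = 0.296) in T>C reads and was not called. TRIP13 was at -2.04 in T>C reads and at 0.84 in all reads (adjusted p = 0.00312), under the fold limit of a call, and its T>C call was lost when scaled by T>C reads (adjusted p = 0.147). The other genes called higher in all reads besides PRC1 and MAD2L1BP were CDC26 at 1.503, NCAPD3 at 1.37 and ANLN at 1.18, and none of these 3 passed in T>C reads, though ANLN did when scaled by T>C reads, at 1.39 (adjusted p = 0.00146). TRIP13 and MAD2L1BP were named by the rule on the largest called changes in T>C reads, and the others after their values were seen. All adjusted p-values are from edgeR's quasi-likelihood test.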
